A study of Homo sapiens with 2 samples.

Results

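Transcripts of the NF-kB subunits, their inhibitors and their direct feedback genes were followed in HCC1954 cells, an established human HER2-positive breast cancer line in which ERBB2 is amplified. The set holds 10 genes given as a list of names: the subunit genes RELA, RELB, REL, NFKB1 and NFKB2, the inhibitor gene NFKBIA, the nuclear IkB genes NFKBIZ and BCL3, and the feedback enzyme genes TNFAIP3 and BIRC3. They are 10 of the 62699 genes with counts in the table, and all 10 were among the 14352 genes at 1 CPM (counts scaled to the size of the library) in at least 1 library, and each of them passed that level in both. The list was chosen by function with earlier results of these data known, namely the ratios of ASO-1235 over ASO-NC, so these ratios are given as a description and no test was made.

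Polyadenylated RNA was sequenced from 1 library labelled ASO-1235 and 1 library labelled ASO-NC by genotype. The series asks what LINC01235, a long non-coding RNA, does to transcription in these cells. The labels give no dose and no time of treatment, do not spell out what ASO or NC stands for, and use the prefix Si in place of ASO in the title of the ASO-1235 library. Both libraries come from the same cell line, so they share its genome and its ERBB2 amplification.

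NF-kB is a family of dimeric transcription factors built from 5 subunits that share a Rel homology domain. In resting cells IkB proteins hold the dimers in the cytoplasm; the canonical route, through the kinase IKK beta and its partner NEMO, destroys IkB alpha and frees mainly dimers of RELA with p50, the product of NFKB1. The non-canonical route, through the kinases NIK and IKK alpha, processes the NFKB2 product p100 to p52 and frees dimers with RELB. Many genes of the family are themselves targets of NF-kB, as are IkB alpha, A20 (the product of TNFAIP3) and cIAP2 (the product of BIRC3), which act back on the pathway.

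Because the feedback genes are known for kB sites near their starts, the bases in front of RefSeq transcription starts were read (GRCh38.p14, from 250 bases before to 50 after each start). Windows were found for 9 of the 10 genes, with 14 windows in all, and RELB was not matched. The kB consensus, read on both strands, was present in at least 1 window of 8 of the 9 genes, against 13.3% of the 27058 genes with a window. By window it was 10 of 14, against 11.3% of 34796 windows. The genes differ in how many windows they have, and a match is a description of letters, not a shown binding site. RELA had no match in its 2 windows, which says only that these letters are not there. These matches are shown in capitals, 5′ to 3′ on the strand of the gene, in 30 bases around the match of the subunit genes, TNFAIP3 and BCL3:
NFKB1 (chr4:102501300-102501329, + strand): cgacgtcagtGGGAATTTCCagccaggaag
NFKB2 (chr10:102394461-102394490, + strand): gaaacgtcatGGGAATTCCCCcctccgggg
NFKB2 (chr10:102394490-102394519, + strand): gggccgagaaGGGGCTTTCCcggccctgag
NFKB2 (chr10:102395519-102395548, + strand): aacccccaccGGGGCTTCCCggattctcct
NFKB2 (chr10:102395674-102395703, + strand): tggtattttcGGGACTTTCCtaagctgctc
REL (chr2:60881517-60881546, + strand): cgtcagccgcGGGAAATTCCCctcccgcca
TNFAIP3 (chr6:137867188-137867217, + strand): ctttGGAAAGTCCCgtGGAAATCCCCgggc
BCL3 (chr19:44748700-44748729, + strand): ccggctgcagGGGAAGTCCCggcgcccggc

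The pair of matches in TNFAIP3 lies 2 bases apart, and in NFKB2 the matches sit in front of 2 different starts. In BCL3 the match begins after the start, whereas that in NFKB1 begins 49 bases and the match in REL 47 bases before it. Longer stretches of 120 bases are shown for NFKBIA, NFKBIZ and BIRC3, where such a stretch around the match overlaps no exon that GENCODE 29 annotates for the gene, again with matches in capitals:
NFKBIA (chr14:35404750-35404869, - strand): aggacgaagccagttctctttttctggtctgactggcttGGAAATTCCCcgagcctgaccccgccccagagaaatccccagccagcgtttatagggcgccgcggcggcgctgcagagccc
NFKBIZ (chr3:101827747-101827866, + strand): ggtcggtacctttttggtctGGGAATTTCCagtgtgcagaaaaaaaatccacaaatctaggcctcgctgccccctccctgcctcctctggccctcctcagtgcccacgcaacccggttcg
BIRC3 (chr11:102317265-102317384, + strand): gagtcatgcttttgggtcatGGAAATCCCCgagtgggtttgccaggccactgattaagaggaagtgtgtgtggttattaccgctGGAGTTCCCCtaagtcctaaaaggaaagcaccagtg

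Between the libraries the ratio was 0.989 for NFKBIA, 0.745 for NFKBIZ and 1.78 for BIRC3. BIRC3 holds a second match to the kB consensus, which begins 135 bases before the start. NFKBIZ also holds a second match, 239 bases before another of its starts:
NFKBIZ (chr3:101849265-101849294, + strand): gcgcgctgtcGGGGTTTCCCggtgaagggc

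The libraries held 37916307 counts (ASO-1235) and 48092494 counts (ASO-NC). LINC01235, the named target, had 0 counts in ASO-1235 and 1337 in ASO-NC. Ratios are ASO-1235 over ASO-NC after TMM scaling. A count of 1 library against 1 has no replicate check. The 95% intervals cover counting error only and were taken on halved counts, because 64.0% of ASO-1235 and 67.5% of ASO-NC counts from 1 to 1000 were even; the reason was not tested. Breast epithelial markers were abundant, with ERBB2 at 4628 CPM in ASO-1235 and 4860 CPM in ASO-NC, and all 7 (EPCAM, CDH1, KRT7, KRT8, KRT18, KRT19 and ERBB2) reached 1 CPM. Of 7 leukocyte markers 1 reached 1 CPM (LYZ, 44 counts in ASO-1235 and 98 in ASO-NC), with the list summing to 2.05 CPM in ASO-1235 and 2.68 CPM in ASO-NC. Of the 5 fibroblast markers only COL1A1 did, in a list that summed to 40.8 CPM in ASO-1235 and 45.1 CPM in ASO-NC, with PDGFRB at 0 in both libraries. The 3 endothelial markers summed to 7.25 CPM in ASO-1235 and 8.03 CPM in ASO-NC, mostly from VWF, and PECAM1 had 10 counts in ASO-1235 and 0 in ASO-NC. The part of other cell types in the results was not tested. Fewer cells of a type and less RNA per cell cannot be told apart in such bulk libraries.

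Among the subunits, RELB was the member farthest from 1. RELB encodes the partner of p52 in non-canonical dimers. It had 732 counts in ASO-1235 and 434 in ASO-NC, which is 18.7 CPM in ASO-1235 and 9.29 CPM in ASO-NC, a ratio of 2.02 (1.70 to 2.40). This was the largest ratio of the 10. The gene (ENSG00000104856.15) lies on chromosome 19 from 45001430 to 45038198 on the plus strand (GRCh38, GENCODE 29).

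NFKB2, which encodes p100 and p52, had 1157 counts (29.6 CPM) in ASO-1235 and 1074 (23.0 CPM) in ASO-NC, a ratio of 1.29 (1.14 to 1.45). REL, which encodes c-Rel, had 615 counts (15.7 CPM) in ASO-1235 and 567 (12.1 CPM) in ASO-NC, a ratio of 1.30 (1.10 to 1.53). NFKB1, which encodes p105 and p50, had 1660 counts (42.5 CPM) in ASO-1235 and 1707 (36.6 CPM) in ASO-NC, a ratio of 1.16 (1.06 to 1.28). These 3 genes stood above 1 with intervals that excluded 1, but under 1.5-fold.

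RELA, the main transactivating subunit of the canonical route, was the most abundant of the 10 in CPM. It had 6407 counts in ASO-1235 and 8433 in ASO-NC, which is 164.1 CPM in ASO-1235 and 180.6 CPM in ASO-NC, a ratio of 0.908 (0.867 to 0.951). With TMM scaling the 4 other subunits were thus above 1 and RELA below it, but RELA turned to 1.12 (1.07 to 1.18) when set against the summed counts of TBP, HPRT1, RPLP0 and GAPDH. With the trend on GC content and length removed, RELA stood at a log2 ratio of 0.013.

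The inhibitor gene was nearly level between the libraries, and both nuclear IkB genes were lower in ASO-1235 by less than 1.5-fold with TMM scaling. Against the 4 reference genes NFKBIA was at 1.22 (1.15 to 1.30), an interval above 1. BCL3 at 1.07 (0.971 to 1.18) and NFKBIZ at 0.920 (0.787 to 1.08) had intervals that held 1. NFKBIA, which encodes IkB alpha, the inhibitor resynthesised after each round of activation, had 3710 counts (95.005 CPM) in ASO-1235 and 4487 (96.1 CPM) in ASO-NC. Its ratio was 0.989 (0.929 to 1.05), an interval that held 1. NFKBIZ, which encodes the nuclear cofactor IkB zeta, had 510 counts (13.1 CPM) in ASO-1235 and 819 (17.5 CPM) in ASO-NC, a ratio of 0.745 (0.634 to 0.873), the lowest of the 10. BCL3, the nuclear IkB partner of p50 and p52 dimers, had 1420 counts (36.4 CPM) in ASO-1235 and 1962 (42.0 CPM) in ASO-NC, a ratio of 0.865 (0.785 to 0.954).

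Both feedback enzyme genes were higher in ASO-1235. BIRC3 encodes cIAP2, a ubiquitin ligase of the TNF receptor complexes that also restrains NIK. It lies on chromosome 11 from 102317450 to 102339403 on the plus strand, and had 963 counts (24.7 CPM) in ASO-1235 and 646 (13.8 CPM) in ASO-NC, a ratio of 1.78 (1.54 to 2.06). TNFAIP3 encodes A20, a ubiquitin-editing enzyme that ends the signal from TNF and Toll-like receptors. It had 1335 counts (34.2 CPM) in ASO-1235 and 1200 (25.7 CPM) in ASO-NC, a ratio of 1.33 (1.19 to 1.49). A20 and IkB alpha are both feedback products of the canonical route. Set against NFKBIA within each library, TNFAIP3 was 1.35-fold (1.19 to 1.53) higher in ASO-1235 than in ASO-NC.

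**Figure D1:**
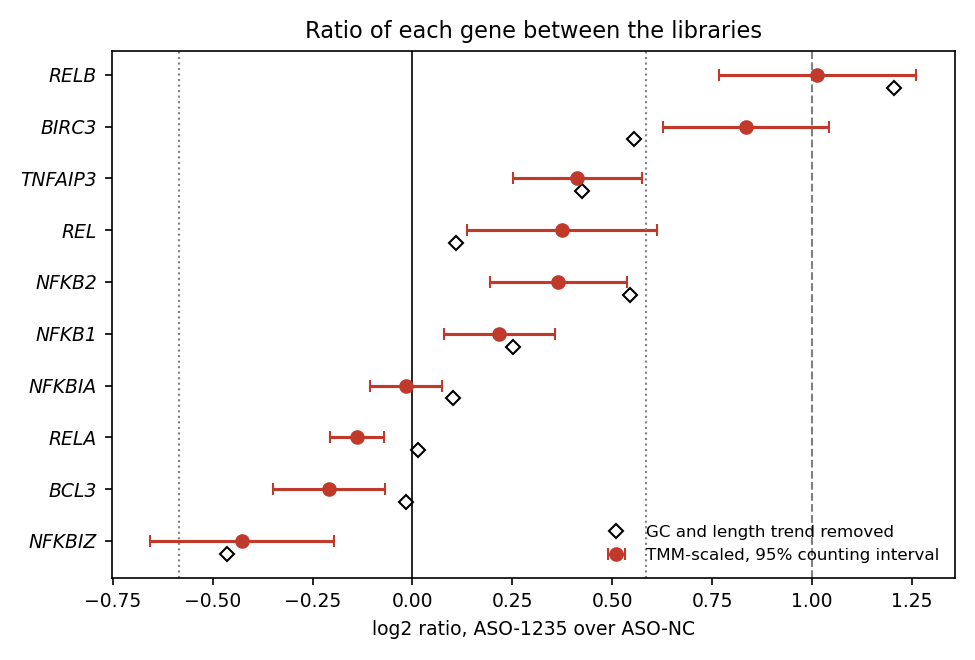
Log2 ratio of ASO-1235 over ASO-NC for the 10 genes in order of size; points and bars are ratios with 95% counting intervals, diamonds the ratio without the trend on GC content and length. Dotted lines mark 1.5-fold and the dashed line 2-fold: RELB and BIRC3 lie past 1.5-fold, and the diamond of BIRC3 is at 0.55.

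Placed in order, the ratios ran from RELB and BIRC3 through TNFAIP3, REL, NFKB2 and NFKB1 to NFKBIA, RELA, BCL3 and NFKBIZ. The counting intervals of RELB and BIRC3 overlapped, as did those of TNFAIP3, REL, NFKB2 and NFKB1, those of NFKBIA and RELA, those of RELA and BCL3, and those of BCL3 and NFKBIZ. The intervals of BIRC3 and TNFAIP3 did not, nor did those of NFKB1 and NFKBIA. At 1.5-fold with an interval that excluded 1, 2 of the 10 (RELB and BIRC3) were higher, where the background over all genes at 1 CPM was 5.2%. None was lower, against 2% of all genes. At 2-fold 1 of the 10, RELB, was higher, against 2.4% of all genes, and 0 were lower, against 0.495%. A closer background, chosen after the values were seen, is the 7328 genes between the lowest and highest mean CPM of the 10 (13.9 to 172 CPM), which hold 103 of the 746 higher genes. In it 1.41% were higher and 0.409% lower at 1.5-fold, while at 2-fold 12 genes, or 0.164%, were higher and 0.0136% lower. The central 95% of log2 ratios of those genes ran from −0.45 to 0.51. RELB at 1.01 and BIRC3 at 0.83 lay outside that range and the other 8 inside it, with NFKBIZ at −0.43 close to its lower end. By level, RELB (18.7 CPM in ASO-1235 and 9.29 CPM in ASO-NC) lay near the low end of the 13.9 to 172 CPM. So did BIRC3 (24.7 CPM in ASO-1235 and 13.8 CPM in ASO-NC). Calls were more frequent among genes of low level over the table, and no background matched to the level of these genes was taken. The median log2 ratio of the 10 was 0.29, beside 0.0009 over all genes at 1 CPM.

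A ratio within a library does not depend on how the libraries were scaled. Set against RELA, RELB was 2.22-fold (1.87 to 2.64) higher in ASO-1235 than in ASO-NC, BIRC3 1.96-fold (1.69 to 2.28), TNFAIP3 1.46-fold (1.30 to 1.65), REL 1.43-fold (1.21 to 1.69), NFKB2 1.42-fold (1.25 to 1.61) and NFKB1 1.28-fold (1.15 to 1.42). NFKBIA was 1.09-fold (1.01 to 1.18) higher against RELA, BCL3 was at 0.953 (0.856 to 1.06) and NFKBIZ at 0.820 (0.696 to 0.965). Set against the summed counts of TBP, HPRT1, RPLP0 and GAPDH, genes used widely as references, every member stood higher than with TMM scaling. RELB was 2.49-fold (2.11 to 2.95), BIRC3 2.20-fold (1.91 to 2.54), TNFAIP3 1.64-fold (1.47 to 1.84), REL 1.60-fold (1.36 to 1.88) and NFKB2 1.59-fold (1.41 to 1.79) higher in ASO-1235, so that 5 of the 10 passed 1.5-fold in place of 2. This sum as reference shifts every gene of the table by the same factor, members or not. The share of all genes past 1.5-fold with it was not counted, so the 5 have no background. That sum came mostly from RPLP0 and GAPDH, which had TMM-scaled ratios of 0.836 (0.823 to 0.849) and 0.773 (0.759 to 0.786), whereas TBP was at 0.948 (0.821 to 1.09) and HPRT1 at 1.07 (0.889 to 1.28). Set against NFKB2, its partner in the non-canonical route, RELB was still 1.57-fold (1.28 to 1.92) higher in ASO-1235.

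Levels can be compared between genes only per length of exon. NFKBIA had the highest level per length of the 10, at 40.04 CPM per kb in ASO-1235 and 40.5 in ASO-NC, and RELA came next at 30.03 in ASO-1235 and 33.1 in ASO-NC. RELB stood at 6.18 CPM per kb in ASO-1235 and 3.06 in ASO-NC. NFKB2 stood at 6.61 in ASO-1235 and 5.13 in ASO-NC, and NFKB1 at 6.79 in ASO-1235 and 5.84 in ASO-NC. In ASO-NC the level of RELB per kilobase was thus below that of NFKB1 and NFKB2, and in ASO-1235 close to theirs. RELA made up 59.1% of the summed subunit level per kilobase in ASO-1235 and 68.8% in ASO-NC, and RELB made up 12.2% in ASO-1235 and 6.38% in ASO-NC. The summed level of the 5 subunits was 50.8 CPM per kb in ASO-1235 and 48.0 in ASO-NC. Exon lengths are the union of all annotated exons, so a gene with long rare exons is set too low. This length was 5464 bases for RELA, whose longest transcript has 3183 bases. For REL it was 13170 bases, with a longest transcript of 11255 bases. Which transcripts are present was not measured.

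**Figure D2:**
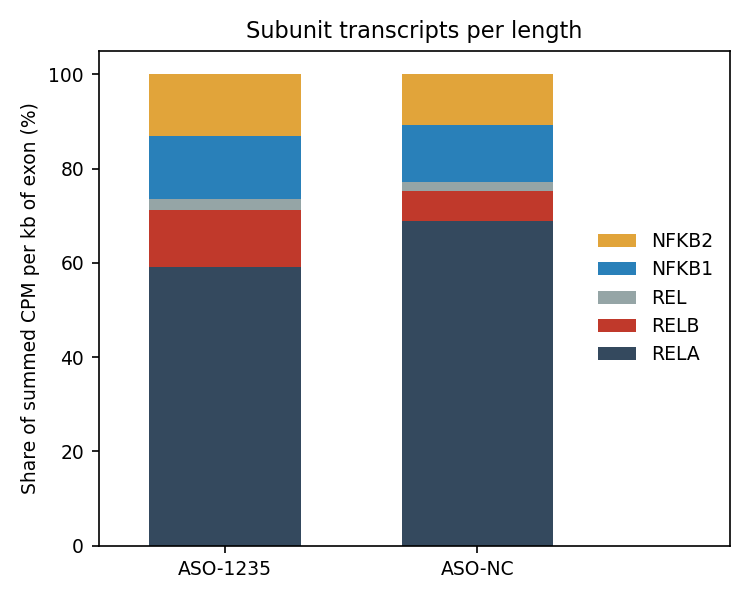
Share of each subunit gene in the summed CPM per kilobase of exon, in 1 ASO-1235 library (left) and 1 ASO-NC library (right). RELB fills 12.2% of the left bar and 6.38% of the right, and RELA 59.1% and 68.8%.

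In these libraries the ratio moved with the GC content of the transcript. The median log2 ratio stood at 0.21 over 2804 genes of low GC content (27.8% to 40.9%) and at −0.19 over 2804 of high GC content (57.9% to 76.0%). BIRC3 and REL belong to the low group, with GC contents of 34.8% and 38.7%, and RELB, NFKB2 and BCL3 to the high group, with 65.4%, 62.4% and 67.4%. RELB and NFKB2 were thus higher in ASO-1235, whereas the median of genes of like GC content was lower. After a trend on GC content and transcript length was removed, RELB stood at 2.31-fold and NFKB2 at 1.46-fold. BIRC3 stood at 1.47-fold, under 1.5-fold, and REL at 1.08-fold. TNFAIP3 (1.34-fold), NFKB1 (1.19-fold) and NFKBIZ (0.725) stayed close to their values, BCL3 stood at 0.989 and NFKBIA at 1.07. What gives rise to the trend was not tested.

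**Figure D3:**
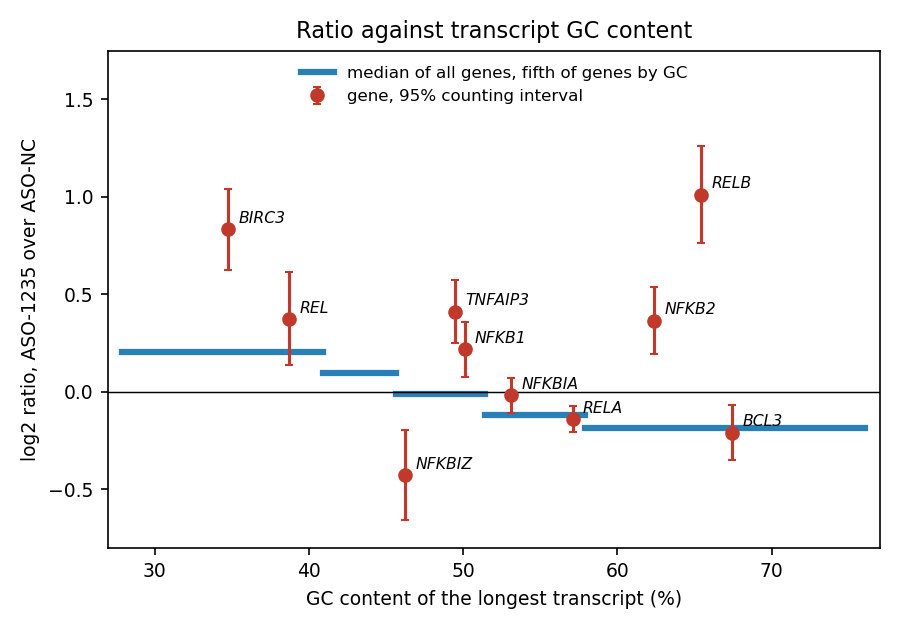
Log2 ratio (ASO-1235 over ASO-NC) of the 10 genes against GC content of their longest transcript, with 95% counting intervals; blue lines are medians of all genes in 5 equal groups by GC content. RELB and NFKB2 lie above the blue line at high GC, while RELA and BCL3 lie close to it.

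Some of the 10 have neighbours in the table. BIRC3 and BIRC2, paralogous genes for cIAP2 and cIAP1, lie 7.81 kb apart on chromosome 11. BIRC2 had 3199 counts in ASO-1235 and 3300 in ASO-NC, a ratio of 1.16 (1.08 to 1.24), so BIRC3 was 1.54-fold (1.31 to 1.80) higher when set against it. RELB and BCL3 lie 241 kb apart on chromosome 19 and stood on different sides of 1, with RELB 2.33-fold (1.92 to 2.83) higher when set against BCL3. RELA-DT, a non-coding gene that starts 8 bases from the start of RELA on the opposite strand and overlaps it by 9 bases, had 284 counts in ASO-1235 and 255 in ASO-NC, a ratio of 1.33 (1.04 to 1.71). WAKMAR2, which overlaps 1046 bases of TNFAIP3 on the opposite strand, had 22 counts in ASO-1235 and 12 in ASO-NC. The strand setting of the counting is not stated in the sources at hand, so reads in overlapping stretches cannot be assigned to a strand. What the overlap does to the counts of TNFAIP3 was not tested. REL-DT had 8 counts in ASO-1235 and 6 in ASO-NC, and an antisense gene at NFKB1 (ENSG00000260651) had 2 in ASO-1235 and 8 in ASO-NC.

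Upstream of the 10 genes, pathway members were followed in lists written with earlier results of these data known. Of 30 ligand and receptor genes, 15 reached 1 CPM, 0 were higher and 1 was lower at 1.5-fold (6.67%, against 5.2% higher and 2% lower over all genes), with a median log2 ratio of 0.03. LTB and TLR2 passed the minimum only through ASO-1235, with intervals that held 1. TNFRSF11A, the receptor RANK, had 113 counts in ASO-1235 and 257 in ASO-NC, a ratio of 0.526 (0.378 to 0.724). TNFRSF12A, the receptor of TWEAK, stood just under 1.5-fold with 4305 counts in ASO-1235 and 3439 in ASO-NC, a ratio of 1.497 (1.40 to 1.60), and at 1.72 with the GC and length trend removed. TNFRSF1A, the main TNF receptor, was at 0.800 (0.746 to 0.859), and LTBR, the lymphotoxin beta receptor that feeds the non-canonical route, at 0.751 (0.702 to 0.803). With the trend removed TNFRSF1A stood at 0.898, LTBR at 0.827 and TNFRSF11A at 0.507.

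Of 27 adaptor and kinase genes, 25 reached 1 CPM, with a median of 0.01, 2 higher (8%, against 5.2% of all genes) and 0 lower. BCL10, of the CARD-BCL10-MALT1 complex, had 857 counts in ASO-1235 and 601 in ASO-NC, a ratio of 1.71 (1.47 to 1.98). IRAK2, a kinase of the Toll-like and interleukin 1 receptors, had 44 counts in ASO-1235 and 10 in ASO-NC, a ratio of 5.26 (1.94 to 17.8). It passed the minimum only through ASO-1235, at 1.13 CPM there and 0.214 CPM in ASO-NC. Among the IKK genes, CHUK (IKK alpha) was at 1.05 (0.9498 to 1.16), IKBKB (IKK beta) at 0.796 (0.715 to 0.886) and IKBKG (NEMO) at 0.697 (0.498 to 0.967). With the GC and length trend removed CHUK stood at 0.883, IKBKB at 0.808 and IKBKG at 0.796. MAP3K14, which encodes NIK, had 284 counts in ASO-1235 and 337 in ASO-NC, a ratio of 1.01 (0.800 to 1.27).

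Among 23 other inhibitor and ubiquitin-editing genes, 21 reached 1 CPM, with a median of 0.14, 1 higher (4.76%, near the 5.2% of all genes) and 0 lower. That gene was CYLD, a deubiquitinase that limits the pathway, with 1572 counts in ASO-1235 and 1177 in ASO-NC, a ratio of 1.60 (1.43 to 1.78), which was 1.36 with the GC and length trend removed. NFKBIB, which encodes IkB beta, was at 1.24 (1.05 to 1.47), NFKBIE (IkB epsilon) at 1.05 (0.821 to 1.35) and TNIP1, a partner of A20, at 0.947 (0.878 to 1.02). All 12 genes of the ubiquitin ligase machinery that acts on IkB reached 1 CPM, with a median of −0.001 and 0 past 1.5-fold either way.

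The list of NF-kB target genes held the most genes past 1.5-fold of the 5 lists. Of its 39 genes, 28 reached 1 CPM, with a median of 0.22, 5 higher and 0 lower, which is 17.9% of the 28 against 5.2% of all genes. IL23A, 1 of the 5, passed the minimum only through ASO-1235, as did CXCL3 and LIF, whose intervals held 1. The 5.2% is not matched to the level of these genes, and calls were more frequent among genes of low level. At a minimum of 5 CPM 279 of 10757 genes were higher, against 746 of 14352 at 1 CPM. CCL20 (3.53 CPM in ASO-1235 and 1.71 CPM in ASO-NC) and IL23A lay under 5 CPM. No background of like level was taken for this list. CXCL8, the neutrophil chemokine interleukin 8, had 554 counts in ASO-1235 and 270 in ASO-NC, a ratio of 2.45 (1.99 to 3.04). CCL20, which attracts dendritic and T cells, had 138 counts in ASO-1235 and 80 in ASO-NC, a ratio of 2.06 (1.38 to 3.13). IL23A encodes the p19 subunit of interleukin 23 and stood at 3.38 (1.49 to 8.46), from 48 counts (1.23 CPM) in ASO-1235 and 17 (0.364 CPM) in ASO-NC. CCL2, a monocyte chemokine, had 489 counts in ASO-1235 and 312 in ASO-NC, a ratio of 1.87 (1.53 to 2.31). The other was CXCL1 at 1.62 (1.25 to 2.11), from 280 counts in ASO-1235 and 207 in ASO-NC, named after its value was seen. Other chemokine genes of the list were not called higher. CXCL3 was at 1.69 (0.870 to 3.35), and CXCL2, under 1 CPM in both libraries, at 1.33 (0.587 to 3.06). Both intervals held 1. CXCL10 was at 0.990 (0.877 to 1.12) and CCL5 at 0.899 (0.850 to 0.952). All of these were named after their values were seen. ICAM1, an adhesion molecule, was at 1.45 (1.21 to 1.74) and at 1.61 with the GC and length trend removed. With that trend removed CXCL8 stood at 2.06, CCL20 at 1.79, under 2-fold, CCL2 at 1.78, CXCL1 at 1.60 and IL23A at 3.58. SOD2, the mitochondrial superoxide dismutase, was at 1.05 (0.961 to 1.14) and TRAF1 at 0.989 (0.679 to 1.43).

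**Figure D4:**
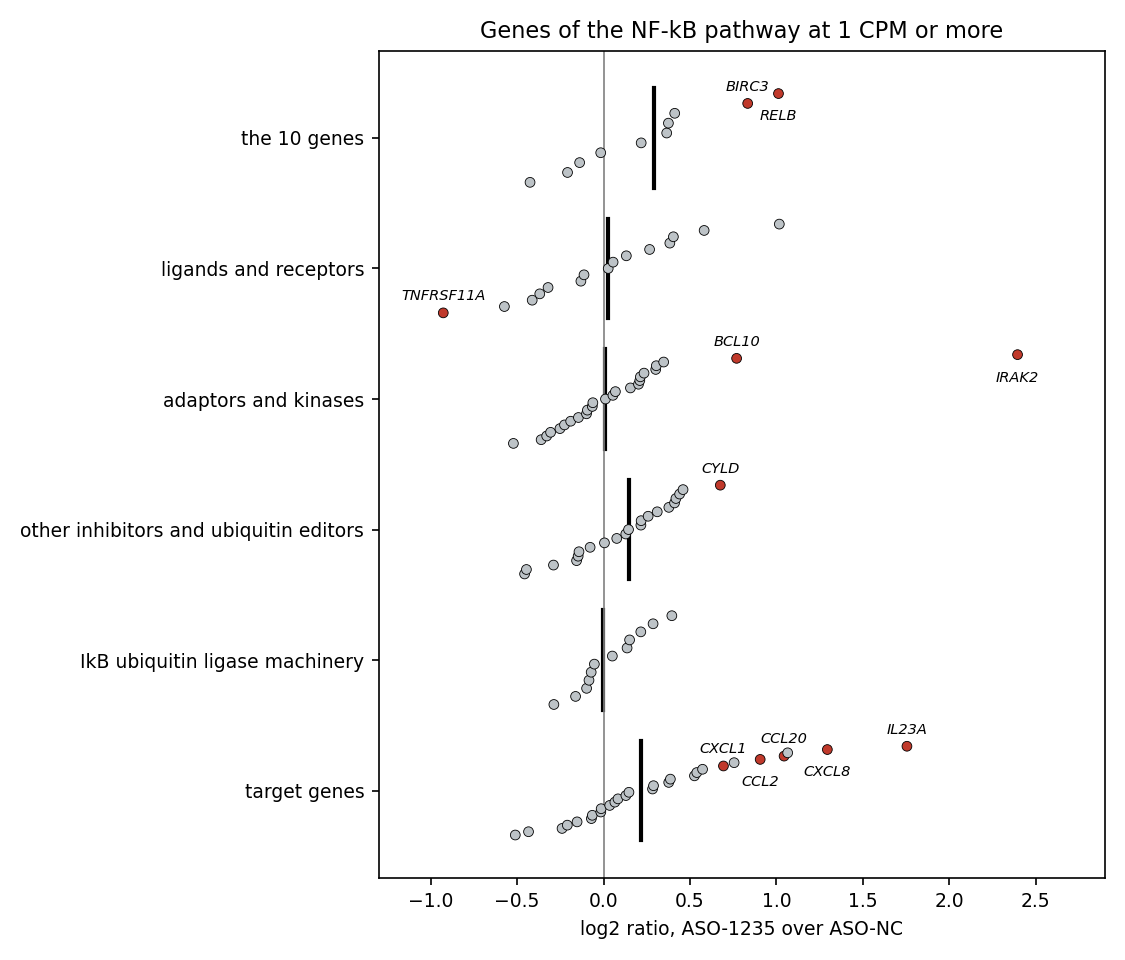
Log2 ratio of ASO-1235 over ASO-NC for pathway genes at 1 CPM or more, 1 point a gene and 1 row a list; red points are past 1.5-fold with an interval that excludes 1, and thick bars are medians. The red points of the target genes all lie to the right, at CXCL1, CCL2, CCL20, CXCL8 and IL23A.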

How the data were processed

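RNA-seq counts came from 1 library per group, taken from the genotype labels. The authors deposited unnormalized gene counts, and their sums differ between the libraries. Per the submitters' processing notes, the tools were STAR 2.7.11a and featureCounts 2.0.6 and the build was hg38. No source at hand states the annotation release, the strand setting or any filter. Of the lines, 3 held no counts and were left out. All 62699 IDs had a symbol. Lengths, GC content and coordinates came from GENCODE 29 on GRCh38, promoter sequences from RefSeq.

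Libraries were scaled with TMM over genes at 1 CPM (edgeR 4.0.16, R 4.3.3), with factors of 1.03 (ASO-1235) and 0.971 (ASO-NC). edgeR served for scaling alone. The 95% interval of a ratio is exact (Clopper-Pearson, conditional on the summed counts) and uses halved counts; those of ratios between genes are on the log scale. No molecular identifiers are stated, so reads may not be independent molecules. Intervals cover counting error only, and the floor of 3 counts that stands in for a count of 0 is on counts as deposited. A gene was called at 1.5-fold or 2-fold with an interval that excluded 1. The trend on GC content and length came from a robust spline fit (5 degrees of freedom a term, statsmodels 0.14.6). Calculations were tested on simulated data. The value of 1 marker gene is not reported here.

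The members and the gene lists were chosen with earlier results of these data known. Named were all members, up to 4 genes each way of each list past 1.5-fold, a fixed set of pathway genes, and genes overlapping or starting near a member. No gene was named for a pattern like a member's, since 2 libraries give a ratio and no pattern. Alternatives were DESeq2 1.42.0 size factors, upper quartile and total count scaling, the trend removed, deposited counts for intervals, other minimum counts, a prior count of 5 and other reference genes.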

Additional observations from a re-analysis of the deposited data

How the results depend on the processing

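No paired analysis was possible because each group has 1 library and the labels give no replicate numbers. For the same reason no library could be left out. The 2 higher members at 1.5-fold were 5 against the 4 reference genes, and 1 (RELB) once the trend on GC content and length was taken out. With the trend taken out, 618 of 14017 genes were higher. The 4 reference genes shift every gene by the same factor, and the share of all genes called with them was not counted. The 1 higher member at 2-fold was 2 against the reference genes and 0 with TMM over all genes of the table, where RELB stood at a log2 ratio of 0.99; this alternative and the total without mitochondrially encoded genes were chosen after seeing the data. RELA turned to a log2 ratio of 0.013 with the trend removed and stood at −0.05 with total count. NFKBIA changed sign among the scalings and the trend removal, between −0.03 and 0.10, where RELB ranged from 0.99 to 1.21, BIRC3 from 0.55 to 0.92, TNFAIP3 from 0.39 to 0.50 and NFKBIZ from −0.46 to −0.34. Against the 4 reference genes the log2 ratios were all higher: RELA at 0.17, NFKBIA at 0.29, RELB at 1.32, BIRC3 at 1.14, TNFAIP3 at 0.72, NFKBIZ at −0.12 and BCL3 at 0.10. Of 101 pathway genes at 1 CPM, 8 (7.92%) were higher at 1.5-fold, against 5.2% of all genes. Among the 8, IRAK2 and IL23A passed 1 CPM only through ASO-1235. The higher pathway genes numbered 14 with total count, where the higher genes over all rose from 746 to 1032. They numbered 5 with a minimum of 5 CPM, where 279 of 10757 genes were higher. How many pathway genes reached that minimum was not counted, so the 5 have no share. Lower pathway genes numbered 1 (0.99%, against 2% of all genes), and 2 with the trend removed or a minimum of 10 counts in sum. Over all genes, 746 were higher and 287 lower: 279 and 101 with a minimum of 5 CPM, 1126 higher with a minimum of 10 counts in sum, and 180 (total count) and 188 (trend removed) lower. The cause was not tested.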

Other observations

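Ligands of the pathway were scarce in both libraries. TNF had 8 counts in ASO-1235 and 18 in ASO-NC, LTA had 31 in ASO-1235 and 12 in ASO-NC, and IL1A had 11 in ASO-1235 and 4 in ASO-NC. IL1B had 0 counts in ASO-1235 and 14 in ASO-NC, where the interval of the ratio on halved counts ran from 0 to 0.830. IL6, a target, had 22 counts in ASO-1235 and 5 in ASO-NC. None of these reached 1 CPM in either library, and all were taken from the lists after their values were seen. LTB, which encodes lymphotoxin beta, reached 1 CPM only in ASO-1235, with 48 counts (1.23 CPM) in ASO-1235 and 44 (0.942 CPM) in ASO-NC. Its ratio was 1.30 (0.701 to 2.44). IL18, also named after its value was seen, passed 1 CPM in both libraries. It had 75 counts (1.92 CPM) in ASO-1235 and 97 (2.08 CPM) in ASO-NC, a ratio of 0.925 (0.587 to 1.45). CD40, TNFSF11 and TNFRSF1B had 0 counts in both libraries.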
